A study of Mus musculus with 6 samples.

Results

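The ADGRB receptors, also called brain-specific angiogenesis inhibitors (BAI), are encoded in the mouse by 3 genes, Adgrb1, Adgrb2 and Adgrb3. They were taken by symbol from a table of 24318 genes, as the gene targeted in the study and its paralogs. All 3 passed the filter on low counts, as did 14131 genes in all. The table came from paired-end bulk sequencing of poly-A RNA of cultured mouse brain astrocytes, glial cells that support and engulf synapses. The 3 KO libraries came from astrocytes lacking ADGRB1 and the 3 WT libraries from wild-type astrocytes. The sources used here do not state the knockout allele, the strain, the animals' age or whether replicate libraries are separate cultures. Each p-value therefore measures no more than how far these libraries spread, and that spread may be technical. The study asked which genes change in astrocytes when ADGRB1 is lost.

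ADGRB receptors are adhesion G protein-coupled receptors. Each carries a long extracellular part with thrombospondin type 1 repeats, a membrane-spanning bundle and a cytoplasmic tail that ends in a motif for PDZ-domain scaffolds. ADGRB1 binds phosphatidylserine on dying cells and signals through ELMO and DOCK proteins to Rac during engulfment, and it also acts at synapses. ADGRB2 is less well understood and ADGRB3 binds secreted C1q-like proteins at synapses.

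The genes lie on different chromosomes. In GENCODE release M21 on GRCm38, Adgrb1 (ENSMUSG00000034730.17) occupies chr15:74516195-74589465 on the plus strand and Adgrb2 (ENSMUSG00000028782.14) occupies chr4:129984870-130022633 on the plus strand. Adgrb3 (ENSMUSG00000033569.17) occupies chr1:25067476-25829707 on the minus strand and spans 762 kb, against 73.3 kb for Adgrb1 and 37.8 kb for Adgrb2. The longest coding transcripts have 31, 29 and 31 exons and coding lengths of 4746, 4731 and 4566 bases for Adgrb1, Adgrb2 and Adgrb3. The longest transcripts of Adgrb1 and Adgrb2 are GC-rich, at 63.6% and 63.1%, whereas that of Adgrb3 has 42.2% GC. Of the 7222 exonic bases of Adgrb1, 95 lie under the predicted microRNA gene Gm26117 on the same strand. No exon of Adgrb2 or Adgrb3 overlaps that of another annotated gene.

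The coding sequences end alike. The last 33 coding bases, which encode the end of the scaffold-binding tail and the stop codon, are shown because they are what the family shares at its cytoplasmic end. Capitals mark the 14 positions that are identical in all 3 genes, from the GENCODE transcript sequences.
Adgrb1: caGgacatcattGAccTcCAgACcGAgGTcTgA
Adgrb2: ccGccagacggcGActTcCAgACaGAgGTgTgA
Adgrb3: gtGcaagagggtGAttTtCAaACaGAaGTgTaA

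Reads can be exchanged between paralogs where their transcripts are alike, and the search here covered exact identity only, not stretches with mismatches. Over all annotated transcripts, the longest identical run of Adgrb1 and Adgrb2 was 26 bases, and that of Adgrb3 with either was 19 bases. No run of 30 bases was shared by any pair. The 26-base run is shown in capitals with 15 coding bases on each side, starting at coding base 1060 of Adgrb1 and 898 of Adgrb2. No source used here states the read length.
Adgrb1: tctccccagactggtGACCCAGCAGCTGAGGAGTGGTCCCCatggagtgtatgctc
Adgrb2: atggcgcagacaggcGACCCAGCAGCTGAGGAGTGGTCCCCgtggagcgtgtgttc

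The KO libraries held 19251607 to 20334442 counts and the WT libraries 17460090 to 18897340. Levels are given as CPM, read counts scaled to a common library size. The 15 astrocyte markers were all above 0 in the cultures. They summed to 41285 to 50681 CPM in KO libraries and 37810 to 43178 CPM in WT libraries. Of these 15, 14 stood higher in KO, against 51.9% of all genes, with a median log2 fold change of 0.24. Markers of other cell types were present too. Of 7 markers of oligodendrocyte precursors, 7 stood lower in KO, where 51.9% of all genes stood higher. They had a summed level of 1377 to 1838 CPM in KO and 2236 to 2748 CPM in WT and a median log2 fold change of -0.59. Of 11 markers of mature oligodendrocytes, 9 stood lower, each of these 9 at an unadjusted edgeR p under 0.05. Over all genes, 3.83% stood lower at that p. DESeq2 called 8 of the 11 markers, against 0.611% of all genes. The median log2 fold change of the 11 was -0.9996, and 2 of the 11 stood above 0. The summed level of the 11 went the other way in the means (log2 KO over WT 0.19). It overlapped, at 11243 to 15140 CPM in KO and 7612 to 14828 CPM in WT. Microglia markers stood lower for 11 of 12 (median -0.25), where 51.9% of all genes stood higher. They summed to 1605 to 1999 CPM in KO and 1841 to 2670 CPM in WT. Neuron markers summed to 415 to 585 CPM in KO and 485 to 506 CPM in WT, and endothelial and mural markers to 155 to 543 CPM in KO and 123 to 177 CPM in WT. Fibroblast markers summed to 43.2 to 72.0 CPM in KO and 43.0 to 57.7 CPM in WT, and ependymal and choroid plexus markers to 54.5 to 56.2 CPM in KO and 34.2 to 101 CPM in WT.

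Adgrb1, the targeted receptor, differed most of the 3 genes, and its reads remained in every KO library. Its level was 158, 140 and 117 CPM in KO libraries, against 299, 363 and 317 CPM in WT libraries. Every KO library lay below every WT library, the direction its label gives. Such a separation was seen for 11.2% of all genes tested, 5.87% with KO lower and 5.28% with KO higher. In raw counts, KO libraries held 3010, 2623 and 2349 reads of Adgrb1 and WT libraries 5472, 6375 and 6364. The means were 138 ± 20.3 CPM in KO and 327 ± 33.1 CPM in WT (SD, n = 3 each). The KO mean was 42.3% of the WT mean, with a log2 fold change of -1.24 ± 0.16 (SE) and a 95% interval of -1.59 to -0.89. Among the 14131 genes it had the third smallest p of edgeR's quasi-likelihood test (1.45e-05). It ranked 173 from the lowest fold change, and its edgeR p adjusted over all genes was 0.0684, which did not pass 0.05. The share of genes called in that fit was 0%, and it was 6.16% at an unadjusted p under 0.05. Adgrb1 stood lower in KO in all 16 alternative fits without replicate numbers and its adjusted p, from 2.63e-09 to 0.544, passed in 6, among them DESeq2 (2.63e-09, 0.611% of genes called), a batch term for the GC trend (0.000160, 0.623% called) and edgeR without KO replicate 3 (0.0169, 0.215% called). Which part of the gene the knockout removes is not stated in those sources, and totals per gene do not show which exons the remaining reads came from.

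Lower levels in a bulk culture can come from fewer cells of a type or from less RNA per cell, and these cannot be told apart here. Set against the astrocyte markers of the same library, Adgrb1 had 3.03 ± 0.16 counts per 1000 marker counts in KO and 8.10 ± 1.06 in WT (SD, n = 3 each). The groups did not overlap on that scale either. The marker sum was itself higher in KO on average (log2 of the KO over WT means 0.17), which lowers KO values on that scale. Most oligodendrocyte precursor, oligodendrocyte and microglia markers stood lower in KO, and their part in the Adgrb1 values was not tested.

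Adgrb2 stood slightly higher in KO astrocytes. Its level was 260, 252 and 219 CPM in KO libraries, against 203, 188 and 203 CPM in WT libraries, and the groups did not overlap. Separation with KO higher was seen for 5.28% of all genes tested. The means were 243 ± 21.7 CPM in KO and 198 ± 8.40 CPM in WT (SD, n = 3 each). KO over WT gave a log2 fold change of 0.30 ± 0.13 (SE), which did not pass (edgeR adjusted p = 0.803). Its unadjusted edgeR p ranked 885 of all genes tested. Its 95% interval of -0.0012 to 0.59 on the log2 scale corresponds to KO levels of 0.999 to 1.51 times those of WT. Per 1000 astrocyte marker counts Adgrb2 had 5.35 ± 0.26 counts in KO and 4.91 ± 0.39 in WT, and the groups overlapped on that scale. With the marker sum as library size its log2 fold change was 0.12.

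Adgrb3, the C1q-like protein receptor, did not separate the genotypes. Its level was 70.6, 67.7 and 79.8 CPM in KO libraries, against 63.5, 68.5 and 79.3 CPM in WT libraries, and the groups overlapped. Replicate 3 was the highest library in both genotypes. The means were 72.7 ± 6.35 CPM in KO and 70.4 ± 8.11 CPM in WT (SD, n = 3 each). The log2 fold change was 0.05 ± 0.15 (SE, edgeR adjusted p = 0.952), with a 95% interval of -0.28 to 0.38, or KO levels of 0.821 to 1.30 times those of WT. Its sign was not stable, since it was below 0 with library sizes from total counts or astrocyte markers, with limma voom, without KO replicate 3 (-0.0267) and without WT replicate 1 (-0.0240, 0.00694% of genes called).

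**Figure D1:**
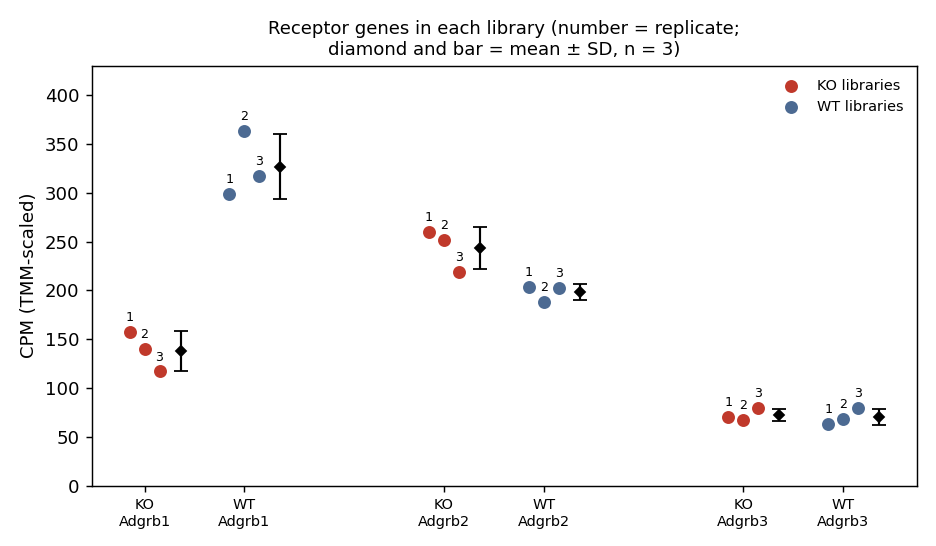
Level of each receptor gene in CPM (linear axis), with 1 point per library and the replicate number above it, and the mean ± SD of 3 libraries beside the points. Adgrb1 separates KO (117 to 158 CPM) from WT (299 to 363 CPM), Adgrb2 stands somewhat higher in KO (219 to 260 CPM) than in WT (188 to 203 CPM), and Adgrb3 overlaps.

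Counting error was small for all 3 genes. It amounted to between 1.25% and 2.06% of the value for Adgrb1, to at most 1.74% for Adgrb2 and to at most 2.93% for Adgrb3, the shallowest. The spread between replicates was wider, with a coefficient of variation of 14.7% in KO and 10.1% in WT for Adgrb1, 8.92% in KO and 4.24% in WT for Adgrb2, and 8.73% in KO and 11.5% in WT for Adgrb3.

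The genotypes differed in which receptor gene had the most reads. Adgrb1 over Adgrb2, a ratio of counts within each library that does not depend on normalization, was 0.607, 0.556 and 0.536 in KO libraries and 1.47, 1.93 and 1.56 in WT libraries. Adgrb2 was the larger count in every KO library and Adgrb1 in every WT library. Adgrb1 is the targeted gene, so a lower ratio in KO is the direction its label gives. The ratio is no result apart from the lower level of Adgrb1. The difference was -1.54 on the log2 scale (exact two-sided permutation p = 0.1, the smallest that 3 against 3 libraries allow, 0.133 adjusted over the 4 tests of this kind). The longest transcripts of both genes have nearly the same GC content, and the part of any GC trend in this ratio was not tested.

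Adgrb1 over Adgrb3 was 2.23, 2.07 and 1.47 in KO libraries and 4.71, 5.30 and 4.00 in WT libraries, again without overlap. The difference was -1.29 on the log2 scale (exact permutation p = 0.1, adjusted 0.133). This ratio too holds the targeted gene and is no separate result. Adgrb2 over Adgrb3 was 3.67, 3.72 and 2.74 in KO libraries and 3.20, 2.75 and 2.56 in WT libraries. These overlapped, and the difference of 0.24 did not pass (exact permutation p = 0.300, adjusted 0.300).

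The 3 receptors together had 454 ± 36.4 CPM in KO and 595 ± 27.4 CPM in WT (SD, n = 3 each), so the KO sum was 76.4% of the WT sum, and the libraries did not overlap (log2 difference -0.39, exact permutation p = 0.1, adjusted 0.133). The KO minus WT difference of means was -188 CPM for Adgrb1, 45.2 CPM for Adgrb2 and 2.28 CPM for Adgrb3. The lower sum in KO thus restates the lower level of the targeted gene and is no separate result. As a share of the family's counts, Adgrb1 made up 30.3 ± 2.07% in KO and 54.8 ± 3.28% in WT. Adgrb2 made up 53.5 ± 1.13% in KO and 33.4 ± 2.80% in WT, and Adgrb3 made up 16.1 ± 2.66% in KO and 11.8 ± 1.22% in WT. A share is bound to grow when another member shrinks, so the larger shares of Adgrb2 and Adgrb3 are no measure of their own level.

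**Figure D2:**
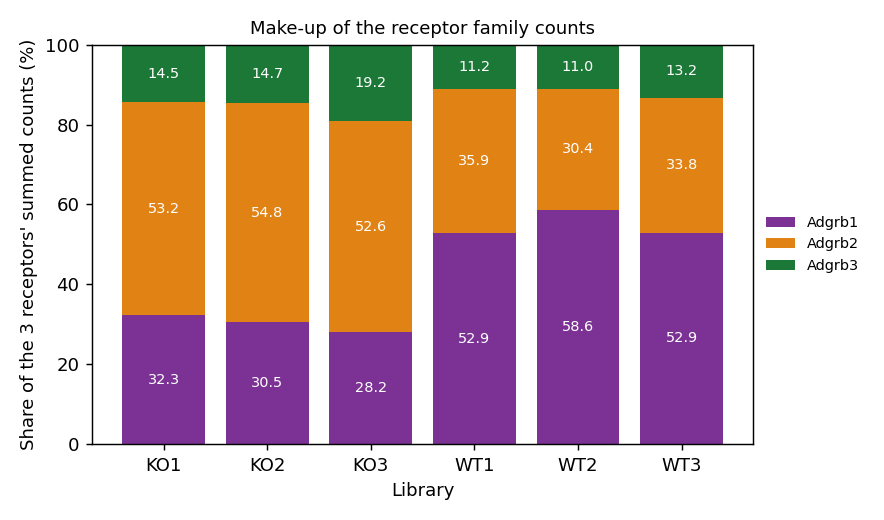
Share of each receptor in the summed counts of the 3 genes, in percent, as 1 stacked bar per library (KO1 to KO3, then WT1 to WT3). Adgrb1 holds 28.2% to 32.3% in KO and 52.9% to 58.6% in WT, and Adgrb2 is the widest band in each KO library.

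Levels of different genes are comparable only per length. Per kb of exonic length (the union of all annotated exons), Adgrb1 had 19.1 ± 2.81 CPM per kb in KO and 45.2 ± 4.59 in WT. Adgrb2 had 37.5 ± 3.35 CPM per kb in KO and 30.5 ± 1.29 in WT, and Adgrb3 had 3.92 ± 0.34 in KO and 3.79 ± 0.44 in WT (SD, n = 3 each). The order was Adgrb2, Adgrb1, Adgrb3 in KO and Adgrb1, Adgrb2, Adgrb3 in WT. Neighbours in the order were further apart than their spread. Adgrb1 lay 0.98 ± 0.09 below Adgrb2 in KO on the log2 scale (a difference of -0.98) and 0.56 ± 0.20 above it in WT (SD over 3 libraries). The low value of Adgrb3 depends on the length used, because its annotated exons add up to 18559 bases while its longest transcript has 5530. Per kb of the longest transcript Adgrb3 had 13.1 ± 1.15 CPM in KO and 12.7 ± 1.47 in WT, and Adgrb1 had 22.2 ± 3.26 in KO and 52.4 ± 5.32 in WT. The order of the 3 genes in each genotype was the same with exonic length, longest transcript and coding length. All 3 lengths count the full annotated Adgrb1, though which exons its remaining KO reads came from is not known. Its KO level per kb, and its place in the KO order, may therefore not measure transcript level.

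**Figure D3:**
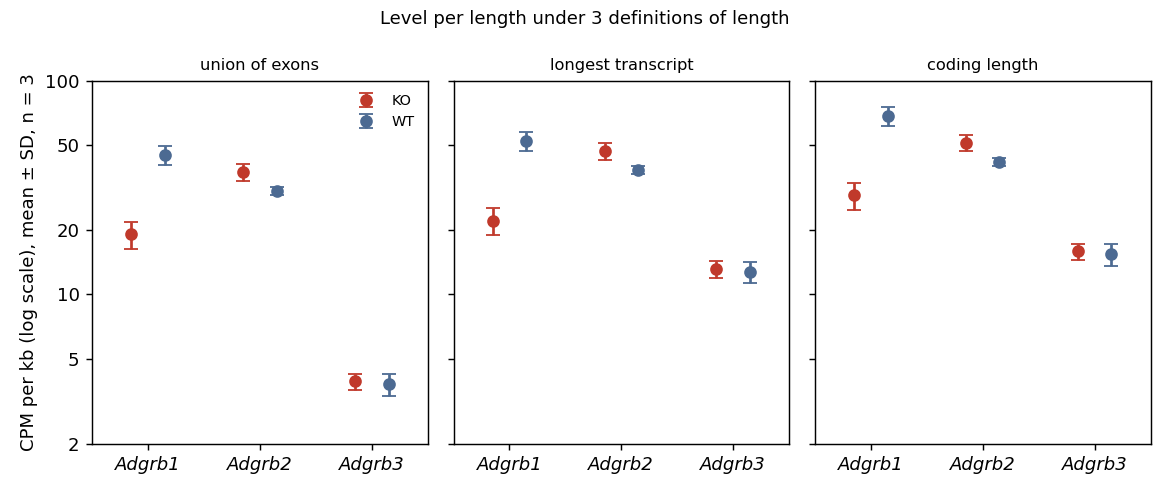
Mean level per kb (log axis) with SD over 3 libraries, for KO and WT, with length taken as the union of exons, the longest transcript or the coding sequence. Adgrb1 lies above Adgrb2 in WT and below it in KO in each panel, and Adgrb3 is lowest in each.

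Set among the 29 adhesion G protein-coupled receptor genes in the table, Adgrb1 ranked 4 by level per kb of exonic length in KO and 2 in WT, and Adgrb2 ranked 2 in KO and 4 in WT. Adgrb3 ranked 12 in both genotypes by exonic length and 6 in KO and 5 in WT by the longest transcript. The KO rank of Adgrb1 rests on the full annotated length and carries the same limit as its KO level per kb.

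The libraries differed in a trend with GC content that only partly followed genotype. GC-rich genes were relatively high in KO replicates 1 and 2 and WT replicate 2 (Spearman correlation across genes 0.389, 0.355 and 0.057) and relatively low in KO replicate 3 and WT replicates 1 and 3 (-0.394, -0.160 and -0.334). Both libraries in which Adgrb3 was highest belong to the second set, and the part of the GC trend in its values was not tested. Inside the first and the second set, log2 CPM in KO less that in WT came to -1.29 and -1.39 for Adgrb1, 0.44 and 0.11 for Adgrb2, and 0.01 and 0.17 for Adgrb3, with a lone library of 1 genotype in each set. Removing the trends with GC and length gave log2 fold changes of -1.29 for Adgrb1 (edgeR adjusted p = 0.00971), 0.24 for Adgrb2 (0.738) and 0.34 for Adgrb3 (0.755). The larger value of Adgrb3 still did not pass. GC and length were removed together, so their parts in it were not told apart. With a batch term for the GC trend alone, the log2 fold change of Adgrb3 was 0.09.

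Genes that work with the ADGRB receptors were read from 5 lists with 40 genes, of which 38 were tested. The lists were chosen with earlier results of these data known. Their counts, set here beside the shares of all genes, are therefore no independent result. With edgeR 0 passed over all genes tested. With DESeq2 1 did, where 0.611% of all genes were called, and with limma voom 0 did, where 0.0566% were called. At an unadjusted p under 0.05, 1 stood higher and 6 lower, where the shares over all genes were 2.34% higher and 3.83% lower. The libraries of the genotypes did not overlap for 9 of the 38, against 11.2% of all genes. The median log2 fold change was -0.15, against 0.01 over all genes tested, and 12 of the 38 were above 0, against 51.9% of all genes.

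Among surface partners, 8 of 9 tested genes stood lower in KO (median -0.27), where 51.9% of all genes stood higher. Of these, 3 had an unadjusted p under 0.05, where 3.83% of all genes stood lower at that p. C1ql3, a secreted ligand of ADGRB3, had 10.1, 7.05 and 8.23 CPM in KO libraries and 13.7, 16.6 and 19.9 CPM in WT libraries, without overlap (log2 fold change -0.99 ± 0.25, edgeR adjusted p = 0.474). Separation with KO lower was seen for 5.87% of all genes tested. C1ql1, another ligand of this family, had 37.4 ± 4.21 CPM in KO and 49.5 ± 6.78 CPM in WT (edgeR adjusted p = 0.793). C1ql4 and Rtn4rl2 had too few reads to be tested. Rtn4rl1, a Nogo receptor homologue chosen after its values were seen, had 3.97 ± 1.88 CPM in KO and 7.83 ± 1.86 CPM in WT. The integrin genes Itgav and Itgb5, whose products bind the thrombospondin repeats of ADGRB1, stood at 292 ± 30.0 and 279 ± 35.5 CPM in KO and 328 ± 48.4 and 294 ± 17.5 CPM in WT. Markers of oligodendrocyte precursors also stood lower (7 of 7), and their part in the values of C1ql1 and C1ql3 was not tested.

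The Rac activation genes held the partner with the smallest p. Elmo1, which joins ADGRB1 to DOCK proteins, had 43.8, 50.4 and 32.6 CPM in KO libraries and 67.6, 82.7 and 74.6 CPM in WT libraries, without overlap (log2 fold change -0.83 ± 0.18, edgeR adjusted p = 0.371). Such a separation with KO lower was seen for 5.87% of all genes tested. Elmo1 was the gene called by DESeq2 (adjusted p = 0.0190, from 0.00604 to 0.988 over the alternative fits). Its paralog Elmo2 was close between genotypes, at 215 ± 36.5 CPM in KO and 203 ± 15.3 CPM in WT, and so was Rac1, at 300 ± 27.5 CPM in KO and 314 ± 25.8 CPM in WT. Dock2, a DOCK gene of blood-derived cells, had 14.4 ± 0.77 CPM in KO and 22.2 ± 1.12 CPM in WT (edgeR adjusted p = 0.612). Dock5, also chosen after its values were seen, had 17.1 ± 7.83 CPM in KO and 33.7 ± 8.48 CPM in WT. Tiam1, a Rac exchange factor gene chosen in the same way, had the largest log2 fold change of the 38 partners in size (1.16 ± 0.52, edgeR adjusted p = 0.812). Its level was 8.06, 20.3 and 37.7 CPM in KO libraries and 6.45, 11.4 and 11.8 CPM in WT libraries, which overlapped. Microglia markers also stood lower (11 of 12), and their part in the values of Elmo1 and Dock2 was not tested. In this list 4 of 10 genes stood above 0 and 6 below (median -0.11), where 51.9% of all genes stood above 0.

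Among scaffolds and tail partners, 7 of 9 genes stood lower (median -0.21), where 51.9% of all genes stood higher. Dlg4, which encodes the synaptic PDZ scaffold PSD-95, was the one partner with an unadjusted p under 0.05 that stood higher, at 127 ± 13.7 CPM in KO and 103 ± 1.27 CPM in WT (log2 fold change 0.31 ± 0.14, edgeR adjusted p = 0.803). Dlg1 had 99.1 ± 22.1 CPM in KO and 119 ± 28.4 CPM in WT, and Magi3, a membrane-associated scaffold, had 56.9 ± 14.2 CPM in KO and 76.8 ± 21.9 CPM in WT, and both overlapped. The G protein subunit genes Gna12 and Gna13 and the small GTPase gene Rhoa had log2 fold changes of -0.09, 0.05 and 0.11, with overlapping libraries. Among the 7 regulators, 3 stood above 0 and 4 below, where 51.9% of all genes stood above 0. Mmp14, a membrane protease that cleaves ADGRB1, had 108 ± 19.4 CPM in KO and 99.98 ± 22.6 CPM in WT. Mbd2, a methyl-CpG-binding protein that silences the human gene in glioma cells, had 61.5 ± 2.49 CPM in KO and 62.4 ± 5.30 CPM in WT. Ezh2, a histone methyltransferase, had 22.5 ± 1.97 CPM in KO and 27.9 ± 3.48 CPM in WT. Gabpb1, a GA-binding protein subunit, had 9.13 ± 2.42 CPM in KO and 13.6 ± 0.29 CPM in WT (edgeR adjusted p = 0.803). Exons of Rac1, Gna12, Gna13 and Rhoa overlap a counted gene on the opposite strand, and those of C1ql3, Itgav, Elmo1, Dock2, Ezh2 and Gabpb1 overlap other annotated transcripts. Whether counting used strand is not stated, so these genes are uncertain.

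**Figure D4:**
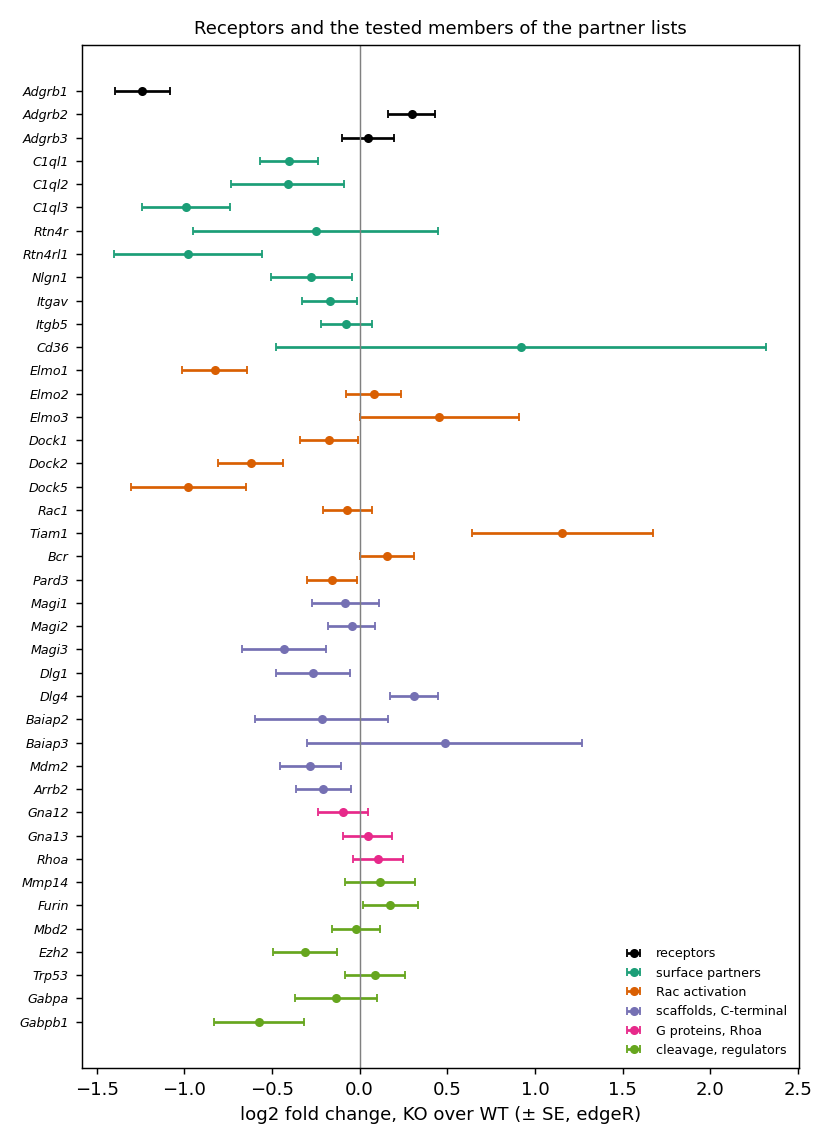
Log2 fold change of KO over WT with its SE from edgeR for the 3 receptors (top) and the 38 tested partner genes, coloured by list. Adgrb1 lies furthest left at -1.24. C1ql3, Rtn4rl1, Dock5, Elmo1 and Dock2 follow at -0.99 to -0.62, Tiam1 lies furthest right at 1.16, and 0 of the 38 partners passed over all genes tested.

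The genes with the profile most like each receptor over the 6 libraries were found by the root mean square difference of mean-centred log2 CPM among 7798 other genes of at least 20 CPM. For Adgrb1 the nearest were Plekhh1 (0.195), Prkcz (0.225), Galnt6 (0.236) and Elmo1 (0.236). Plekhh1 had 36.6 ± 4.96 CPM in KO and 75.7 ± 7.45 CPM in WT, and Prkcz, an atypical protein kinase C gene, had 31.4 ± 5.38 CPM in KO and 56.7 ± 3.76 CPM in WT. Galnt6 had 23.5 ± 4.21 CPM in KO and 50.7 ± 11.98 CPM in WT. Every KO library lay below every WT library for these 4, as for 5.87% of all genes tested. They were chosen for likeness to Adgrb1, which itself separates the genotypes, so their separation is no result of its own. Most oligodendrocyte precursor and oligodendrocyte markers also stood lower in KO, and their part in these profiles was not tested. Exons of Plekhh1 overlap Pigh and those of Galnt6 overlap Galnt6os on the opposite strand, so both are uncertain.

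The nearest to Adgrb2 were Fam65a (0.030), the mitochondrial carrier gene Sfxn5 (0.033) and the receptor gene Lrp10 (0.035). Sfxn5 had 797 ± 56.0 CPM in KO and 630 ± 14.1 CPM in WT. The nearest to Adgrb3 were Erlec1 (0.035), Chmp2b (0.038), Slbp (0.048) and Commd8 (0.050), with log2 fold changes of 0.05, 0.04, 0.00 and -0.02 in edgeR. Exons of Fam65a, Lrp10 and Slbp overlap other annotated genes, which makes them uncertain. The libraries spanned a smaller range for Adgrb2 and Adgrb3 than for Adgrb1, so the distances are not comparable between receptors.

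**Figure D5:**
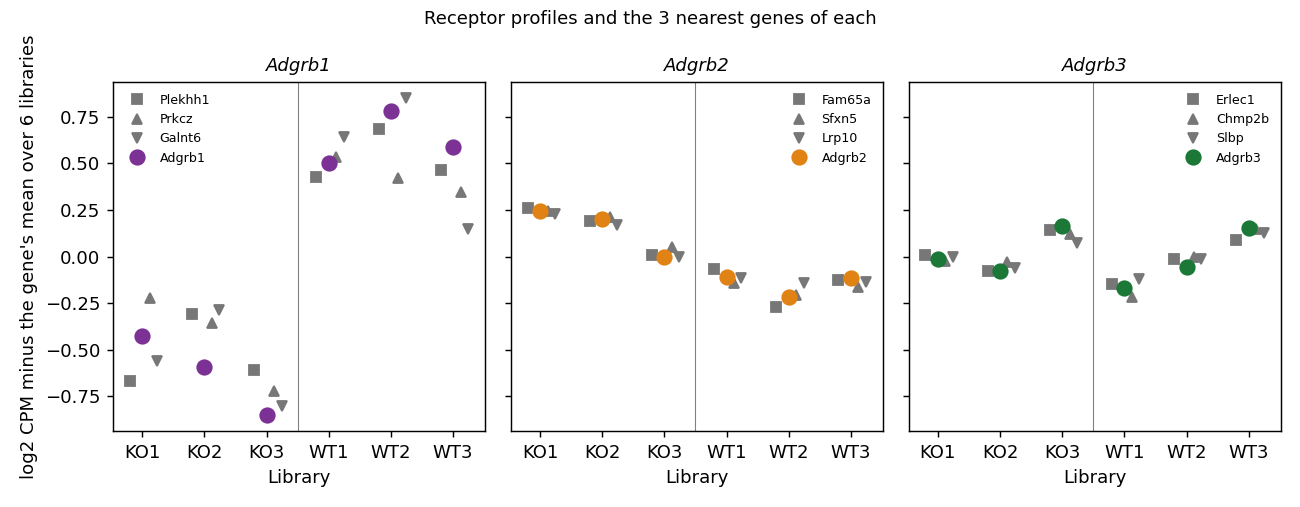
Log2 CPM in each library minus the gene's mean over the 6 libraries, for each receptor (large coloured points) and its 3 nearest genes (grey symbols), with KO left and WT right of the line. The Adgrb1 panel is split by genotype, the Adgrb2 panel less widely, and in the Adgrb3 panel both replicate 3 libraries are highest.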

How the data were processed

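Poly-A RNA of 3 KO and 3 WT astrocyte libraries was sequenced. The authors deposited estimated counts per gene symbol without normalization, and the submitters' processing notes name TopHat2, featureCounts and the builds GRCm38 and mm9 without roles or versions. Strand use and the handling of shared reads are not stated. Of the 24318 symbols, 98.4% matched GENCODE M21 (GRCm38), from which coordinates, lengths and transcript sequences were taken. Values were rounded to whole numbers.

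KO was compared with WT on the whole table with edgeR 4.0.16 in R 4.3.3 (filterByExpr, TMM, robust quasi-likelihood F test), adjusted by Benjamini-Hochberg over 14131 genes at 0.05. CPM are TMM-scaled. Within-library ratios (pseudocount 0.5) and the family sum were compared by exact permutation of the 6 libraries. Log2 CPM used a prior count of 2. Counts of replicates differed beyond sampling noise (chi-square over its degrees of freedom 22.3 to 89.1), and none was a duplicate.

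The members and lists were chosen with earlier results of these data known. Named were the 2 nearest tested genes on each side of a receptor gene; named partners were the 2 of highest CPM and the 2 of smallest p in each list, and profiles were the 4 nearest named genes per receptor, of which 1 is not reported here. Alternatives were RLE, total counts and the astrocyte marker sum as library size, no low-count filter, a filter of 1 CPM in 3 libraries, DESeq2 1.42.0, limma 3.58.1 voom with quality weights, the bias-adjusted quasi-likelihood, GC and length trends removed by splines (4 degrees of freedom), a batch term that divides the libraries by the sign of their GC correlation, the replicate number as a block, and leaving out each library.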

Additional observations from a re-analysis of the deposited data

How the results depend on the processing

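Adgrb1 stood lower in KO in all 17 alternative fits, from -1.42 with the astrocyte marker sum as library size to -1.13 without KO replicate 3. Its adjusted edgeR p passed 0.05 without a low-count filter (-1.24), with the GC and length trends removed (-1.29), with a batch term for the GC trend (-1.34) and without KO replicate 3 (-1.13), and that of DESeq2 (-1.24) and limma voom (-1.19) passed too. Leaving out a library gave -1.35 to -1.13, with 1 of 6 such fits passing, and the highest adjusted p was 0.544 without KO replicate 2. Adgrb2 was above 0 in all 17 fits (0.12 to 0.37) and passed in 0. Adgrb3 passed in 0 and turned below 0 with total counts (-0.0292), the astrocyte marker sum (-0.12), limma voom (-0.0224), without KO replicate 3 (-0.0267) and without WT replicate 1 (-0.0240), so that leaving out a library gave -0.0267 to 0.14. The astrocyte marker scale moved the median of all genes to -0.15, and relative to it Adgrb1 stood at -1.27, Adgrb2 at 0.28 and Adgrb3 at 0.03.

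Genes called numbered 0 in edgeR, 6 with no low-count filter, 79 with DESeq2, 8 with limma voom, 15 with the GC and length trends removed, 88 with the GC batch term, and 0 to 31 without 1 library (31 without KO replicate 3). Elmo1 was the 1 partner called with DESeq2, and again with the GC batch term. The cause of these differences was not tested.

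The replicate numbers were not shown to pair the libraries. Deviations from the group means correlated at 0.087, 0.150 and 0.284 for the 3 numbers, and each of the 6 libraries correlated best with its own number. For KO replicate 1 this was nearly a tie, at 0.0873 with WT replicate 1 and 0.0869 with WT replicate 2. The match is a hint from the data and not from the design. With the replicate block edgeR called 44 genes, and Adgrb1 was at -1.25 (adjusted p = 0.0143). Paired over the same numbers, Adgrb1 over Adgrb2 (-1.54), Adgrb1 over Adgrb3 (-1.29), Adgrb2 over Adgrb3 (0.24) and the family sum (-0.39) kept their directions (exact sign-flip p = 0.25 each, the smallest that 3 pairs allow).

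Log2 differences per kb moved with the length used. Per longest transcript and per coding length, Adgrb1 over Adgrb2 in KO was -1.09 and -0.83, Adgrb1 over Adgrb3 was 0.75 and 0.86 in KO and 2.04 and 2.16 in WT, and Adgrb2 over Adgrb3 was 1.84 and 1.69 in KO and 1.59 and 1.45 in WT. With exonic length these were -0.98, 2.28, 3.58, 3.26 and 3.01. Counting error was at most 2.93% for a receptor in any library, and 3 libraries a group cannot reach an exact permutation p under 0.1.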

Other observations

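The genes beside each receptor on its chromosome were read for the level of the region. Next to Adgrb1 on chromosome 15, the nearest tested protein-coding genes were Arc, an activity-induced synaptic gene 79.6 kb after it, and Jrk, 113 kb after it. Arc had 7.80, 12.9 and 15.7 CPM in KO libraries and 16.5, 13.2 and 17.2 CPM in WT libraries, which overlapped (log2 fold change -0.37 ± 0.28, edgeR adjusted p = 0.834). Jrk had 9.97 ± 1.67 CPM in KO and 9.74 ± 2.77 CPM in WT (SD, n = 3 each), and its exons overlap a transcript on the opposite strand. On the other side, the phosphatase gene Ptp4a3 lay 757 kb away at 25.9 ± 4.62 CPM in KO and 27.0 ± 4.29 CPM in WT. Slc45a4 lay 870 kb away at 17.5 ± 1.46 CPM in KO and 21.3 ± 1.74 CPM in WT (log2 fold change -0.28 ± 0.19, edgeR adjusted p = 0.831). The Slc45a4 libraries did not overlap, and 5.87% of all genes tested separated in that direction. These 4 log2 fold changes lay between -0.37 and 0.04, against -1.24 for Adgrb1. No other gene of the region was read, so these 4 do not give the level of the region as a whole.

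Beside Adgrb2 on chromosome 4, Col16a1, a collagen gene 25.2 kb after it, had 81.0, 103 and 108 CPM in KO libraries and 70.5, 85.3 and 64.5 CPM in WT libraries, and the groups overlapped (log2 fold change 0.41 ± 0.17, edgeR adjusted p = 0.793). Pef1, Ptp4a2 and Khdrbs1 near it had log2 fold changes of 0.15, -0.13 and -0.13. Adgrb3 stands in a sparse stretch of chromosome 1. Its nearest tested protein-coding genes were Lmbrd1, 301 kb away, at 242 ± 21.1 CPM in KO and 236 ± 7.62 CPM in WT, and Col9a1, 815 kb away, at 2.18 ± 2.01 CPM in KO and 1.90 ± 1.36 CPM in WT. On the other side, Phf3 and Ptp4a1 lay 4973 and 5111 kb away with log2 fold changes of -0.27 and -0.61, neither past the threshold. The symbol Ptp4a1 has overlapping entries in the annotation and is uncertain.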
